A study of Zea mays with 48 samples.

Results

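Of 30432 nuclear maize genes in the table, 22 had less transcript in bzip60-2 leaves than in W22 leaves at each of 8 combinations of leaf stage and growth temperature. They were picked by the genotype difference itself. A gene entered the set if its group mean of log2(FPKM + 1) was lower in bzip60-2 by 0.58 or more in every pair of groups of the same stage and temperature. FPKM counts fragments per kilobase of transcript, scaled by the mapped fragments of the library. Genes in 3 runs of consecutive identifiers were left out, and the same threshold without that step gives 29 genes. With the sign turned round, 138 genes were higher in bzip60-2 in all 8 pairs. Both counts are from unscaled values, where the median difference of all genes tested was positive in every pair. After scaling by size factors the rule gave 47 lower genes, and no count of higher genes is given. The 22 and 138 are thus not a measure of how many genes go each way. Since the genotype differences chose the genes, they are given below as a description with no test.

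The leaves came from maize plants carrying the bzip60-2 allele and from plants of the inbred line W22, and bzip60-2 is the only mutant allele that the sample labels name. How far the mutant line differs from W22 outside that allele is not given in the sources used here, so an effect of the allele and of other differences between the lines cannot be told apart. Plants grew in chambers with a daily maximum of 31, 33, 35 or 37 °C, each temperature in its own pair of chambers, so the effect of a temperature and of its chambers cannot be told apart. The middle of the newest fully expanded leaf was taken at V4, with the collar of leaf 4 visible (20 days after germination), or at V5 (27 days). There were 16 groups with 3 libraries in each, 48 in all: bzip60-2 at V4, bzip60-2 at V5, W22 at V4 and W22 at V5, each at the 4 temperatures. The labels do not settle whether a replicate is a single plant or a pool, so p-values measure only the spread between these samples.

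bZIP60 is a basic leucine zipper protein that switches on genes of the unfolded protein response. When unfolded proteins build up in the endoplasmic reticulum, the membrane sensor IRE1 splices the bZIP60 messenger RNA, and the resulting protein moves to the nucleus and activates genes for chaperones and protein quality control. Heat is a known trigger of this splicing in plants, and the series asks how the unfolded protein response and the heat response are connected. None of the 22 identifiers (0 of 22) could be paired with a gene name in the tables used here, so the genes are named by identifier and no role is given for any of them.

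The sum of FPKM in a library lay between 869999 and 941520, and 24520 to 26641 genes had a value above 0. Absolute depth is unknown, and relative depth, estimated from the steps between low values, ran from 0.783 to 1.07. Transcript Zm00001d033132 divided the libraries into a set of 14 (0 to 1.29 FPKM) and a set of 34 (60.5 to 324 FPKM). The set of 14 holds the W22 V4 libraries other than replicate 3 at 37 °C, and bzip60-2 V4 at 31 °C. For comparisons that cross these sets, some of the counts and some of the calls described in detail are given also with a term for them. The other counts and calls, among them the counts over all temperatures at V4, are given without it. The genotype pairs at V4 above 31 °C also cross the sets, apart from replicate 3 of W22 at 37 °C. Their differences are given without the term, so genotype and library set were not separated there. That term rests on replicate 3 of W22 V4 at 37 °C against the other replicates of its group, the only group with both sets. It cannot separate a difference between the sets from the deviation of that library. Calls kept or lost with the term are therefore a description, and no conclusion is drawn from them. Among leaf markers, the plastid gene psaA for a photosystem I subunit had 9.98, 13.8 and 19.1 FPKM as lowest, median and highest in 24 bzip60-2 libraries, against 9.89, 14.1 and 20.3 FPKM in 24 W22 libraries. The plastid genes rbcL and psbA had a median of 0 FPKM in both genotypes in this poly(A)-selected RNA, and nuclear leaf markers could not be paired with identifiers. In whole leaf tissue, fewer cells of a type and less RNA per cell cannot be told apart.

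The 22 genes ranged from weakly to strongly expressed in W22. Their W22 means over 8 groups ran from 1.03 to 129 FPKM with a median of 6.82 FPKM, and 9 genes reached 10 FPKM. In bzip60-2 the corresponding mean was 0% to 43.7% of the W22 mean, with a median of 26.8%. All 22 passed the filter on low values (1 FPKM in 3 libraries). The average difference over the 8 pairs ran from -2.65 to -0.90 on the log2(FPKM + 1) scale, with a median of -1.54. This scale understates the differences of weakly expressed genes.

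**Figure D1:**
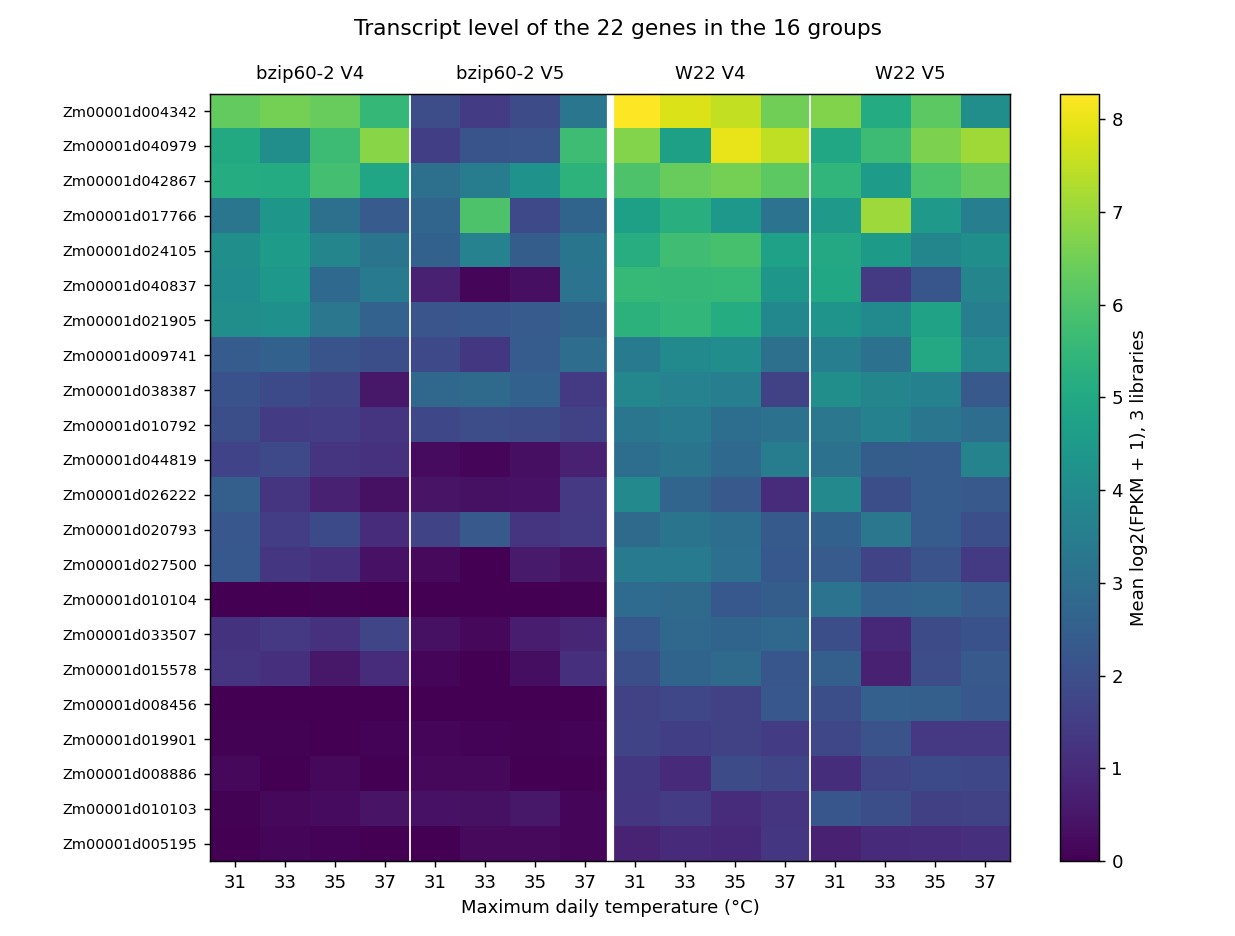
Group means of log2(FPKM + 1) (colour) for the 22 genes (rows, ordered by mean level in W22) in the 16 groups of 3 libraries (columns), with bzip60-2 to the left of W22. Zm00001d008456 is at 0 in all bzip60-2 columns, and Zm00001d004342 and Zm00001d040979 are the most abundant genes in W22.

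A group of 6 genes had almost no signal in bzip60-2. Zm00001d005195, Zm00001d008456, Zm00001d008886, Zm00001d010103, Zm00001d010104 and Zm00001d019901 stayed below 1 FPKM in all 24 bzip60-2 libraries, and their bzip60-2 means were 0% to 11.8% of the W22 means. Their W22 means lay between 1.03 and 5.48 FPKM, so they are also among the weaker transcripts of the set. Between pairs the genotype difference of these genes moved by 0.54 to 1.00 on the log2(FPKM + 1) scale. In the other 16 genes it moved by 0.71 to 3.92, with a median of 1.62. Low W22 levels limit the difference on this scale, so nothing is read from this contrast, and its reason was not tested.

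Zm00001d008456 was listed at 0 in all 24 bzip60-2 libraries, against a lowest value of 1.29, a median of 3.27 and a highest value of 5.97 FPKM in 24 W22 libraries. Zm00001d010104 was at 0 in 22 of 24 bzip60-2 libraries, with a highest value of 0.13 FPKM, against 3.33, 4.96 and 8.87 FPKM as lowest, median and highest in W22. It had the largest average difference of the set (-2.65). Every bzip60-2 library lay below every W22 library for both genes, at both stages and all temperatures.

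Zm00001d019901 had 0, 0.04 and 0.15 FPKM as lowest, median and highest in bzip60-2, against 1.33, 2.00 and 3.77 FPKM in W22. Zm00001d010103 had 0, 0.21 and 0.62 FPKM in bzip60-2, against 0.63, 1.89 and 4.13 FPKM in W22, so its groups almost touched. The remaining genes of this group touched or overlapped over all 48 libraries. Zm00001d008886 had 0, 0 and 0.49 FPKM as lowest, median and highest in bzip60-2, against 0.10, 2.17 and 3.68 FPKM in W22. Zm00001d005195 had 0, 0 and 0.50 FPKM in bzip60-2 and 0.42, 0.92 and 1.80 FPKM in W22. Its average difference on the log2(FPKM + 1) scale was the smallest of the set (-0.90). In FPKM, however, its bzip60-2 mean was only 7.34% of its W22 mean.

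Counted over the whole set, 6 genes had no overlap between 24 bzip60-2 and 24 W22 libraries: Zm00001d008456, Zm00001d010103, Zm00001d010104, Zm00001d010792, Zm00001d019901 and Zm00001d044819. Of all 22794 genes tested, 0.132% (30 genes) had every bzip60-2 library below every W22 library, and since the rule used these values nothing is read from the comparison. Within pairs of groups, 3 libraries against 3, 20 genes did not overlap in any of the 8 pairs. The exceptions were Zm00001d027500, which overlapped in 2 pairs, and Zm00001d033507, which overlapped in 1. The share of all genes without overlap within pairs is not given. The rule used the means of these same pairs, so nothing is read from this count either. At least 1 bzip60-2 library was at 0 for 11 genes, and no gene of the set was at 0 in a W22 library (0 of 22).

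Consecutive identifiers occurred once in the set, at Zm00001d010103 and Zm00001d010104, both in the group near 0. The next closest pair, Zm00001d040837 and Zm00001d040979, lay 142 numbers apart. Whether close numbers mean neighbouring genes was not checked, because no annotation of this build was used here. Of 27 tested genes that have the identifier nearest to a member on either side and are not members themselves, 1 (Zm00001d040836) had an average difference of -0.58 or lower. The median over these 27 was 0.17, against 0.20 over all nuclear genes tested, of which 1.31% averaged -0.58 or lower. Zm00001d044819 lies 126 numbers below the start of a left-out run.

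The size of the difference depended on the pair. The median over the 22 genes was -1.25, -1.38, -1.62 and -1.29 at V4 and 31, 33, 35 and 37 °C, and -2.05, -1.60, -1.79 and -1.03 at V5. It was thus widest at V5 and 31 °C and narrowest at V5 and 37 °C. The median over all 22794 genes tested was positive in every pair, between 0.08 and 0.34. After scaling by size factors it lay between -0.01 and 0.02, and the medians of the 22 genes lay between -2.19 and -1.19. The share of all genes at -0.58 or lower was 1.98%, 2.63%, 4.14% and 3.97% at V4 and 4.41%, 4.83%, 3.77% and 2.85% at V5, in the same order of temperatures.

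Among single genes, 10 had their largest difference at V5 and 31 °C, and 6 had their smallest at V5 and 37 °C. The difference was wider at V5 and 31 °C than at V5 and 37 °C in 18 of 22, while at V4 it was wider at 31 than at 37 °C in 10. Averaged over temperatures it was wider at V5 in 15 genes and at V4 in 7. The summed FPKM of the 22 genes was lower at V5 than at V4 at each temperature in both genotypes. At V4 it was 227, 241, 237 and 221 FPKM in bzip60-2 at 31, 33, 35 and 37 °C, against 710, 606, 768 and 468 FPKM in W22. At V5 it was 42.3, 109, 51.8 and 144 FPKM in bzip60-2, against 371, 347, 387 and 349 FPKM in W22. A few abundant genes make up most of these sums.

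**Figure D2:**
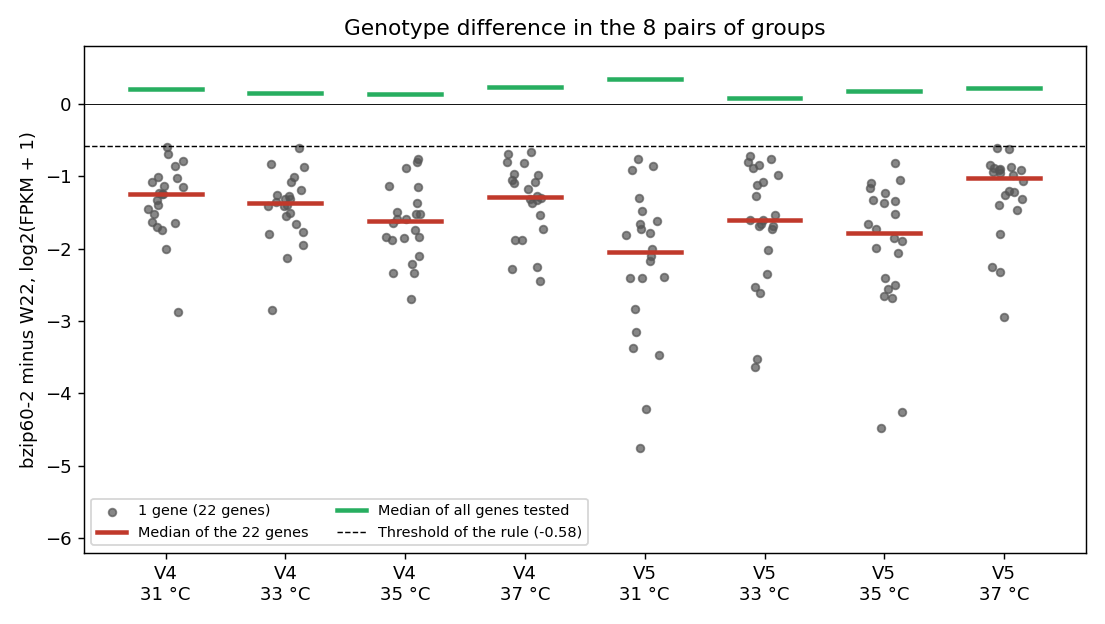
Difference of bzip60-2 minus W22 in group means of log2(FPKM + 1) (vertical axis) for each of the 22 genes (points) in the 8 pairs of stage and temperature (horizontal axis), with the median of the 22 (red bars), the median of all genes tested (green bars) and the threshold of -0.58 (dashed line). All points lie below the threshold because the genes were chosen by it, and the spread is widest at V5 and 31 °C, where the lowest point is -4.76.

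The 2 most abundant genes of the set in W22, Zm00001d004342 and Zm00001d040979, also had the widest single differences. On the log2(FPKM + 1) scale a difference cannot be wider than the W22 value itself, so weaker genes had less room. Zm00001d004342 averaged 38.8 FPKM over the bzip60-2 groups and 129 FPKM over the W22 groups. At V5 and 31 °C it had 2.69, 2.96 and 3.02 FPKM in the bzip60-2 libraries, against 108, 101 and 104 FPKM in the W22 libraries. That difference, -4.76 on the log2(FPKM + 1) scale, was the largest of any gene and pair in the set. At V5 and 37 °C it had 7.37, 9.68 and 8.78 FPKM in bzip60-2, against 16.0, 17.2 and 15.2 FPKM in W22, and the difference was -0.84. No bzip60-2 library reached a W22 library in either pair, and the gap was narrower at the higher temperature.

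Zm00001d040979 averaged 33.4 FPKM over the bzip60-2 groups and 110 FPKM over the W22 groups. Its difference was -4.48 at V5 and 35 °C, with 2.89, 4.08 and 3.71 FPKM in bzip60-2, against 102, 102 and 96.1 FPKM in W22. It was only -0.62 at V4 and 33 °C, with 15.4, 15.7 and 16.98 FPKM in bzip60-2, against 25.3, 24.9 and 25.1 FPKM in W22. That pair placed the gene close to the edge of the set, and even there the libraries of the genotypes did not overlap. Also just inside the threshold were Zm00001d020793, with a smallest difference of -0.59 at V4 and 31 °C, and Zm00001d040837, with -0.62 at V5 and 37 °C. Just outside were Zm00001d015806, with -0.578 at V5 and 37 °C, and Zm00001d053143, with -0.57 at V4 and 37 °C.

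The response to temperature within a genotype was not used to choose the genes and was tested for all 22794 genes with limma, with Benjamini-Hochberg adjusted p-values and a threshold of 0.05. At V5 in bzip60-2, 11 of the 22 genes were higher at 37 than at 31 °C and 1 was lower, where 20.8% of all genes tested were higher and 32.8% lower. At V5 in W22 the counts were turned round, with 4 genes higher and 11 lower, where 21.9% of all genes were higher and 22.3% lower. The median change of the 22 was 0.31 in bzip60-2 at V5 (all genes -0.08) and -0.48 in W22 at V5 (all genes 0.01). The genotype difference in these responses is built from the values that chose the genes and was not tested. In fits that each left out a library, the count higher in bzip60-2 at V5 was 9 to 10. Zm00001d033507 (adjusted p = 0.0419, limma) lost its call there without any replicate at 31 °C, and without replicate 1 or 2 at 37 °C. It also lost the call with no filter and in a fit of only those libraries.

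At V4 the counts leaned to lower transcript at 37 °C in both genotypes. In bzip60-2, 2 genes were higher and 11 lower, where 33.5% of all genes were higher and 21.7% lower. In W22, 4 were higher and 10 lower, where 26.6% of all genes were higher and 19.7% lower. The median change of the 22 was -0.44 in bzip60-2 (all genes 0.08) and -0.30 in W22 (all genes 0.05). With a term for the library sets, the bzip60-2 counts at V4 were 1 higher and 7 lower, and Zm00001d010792, Zm00001d020793, Zm00001d027500 and Zm00001d040837 were no longer called lower. The W22 counts with that term were 6 higher and 8 lower. In W22 at V4, 2 genes were higher in a fit of only those libraries, and 6 were lower with a pseudocount of 0.1. Without replicate 3 of W22 V4 at 31 °C, the number of genes higher in W22 at V4 was 7 instead of 4.

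A moderated F test over all 4 temperatures called 14 genes in bzip60-2 at V4 (72.2% of all genes), 17 in W22 at V4 (66.0%), 13 in bzip60-2 at V5 (72.8%) and 20 in W22 at V5 (81.0%). The 6 genes near 0 in bzip60-2 passed the filter on low values through W22 alone, so a change in bzip60-2 could hardly be seen in them, and all bzip60-2 counts over 22 genes include them. Each of the 22 genes was called at 37 against 31 °C in at least 1 of the 4 series of genotype and stage, as were 83.2% of all genes, and with a term for the library sets the count was 19. Zm00001d008886 was called in W22 at V5 alone (log2 change 0.70, adjusted p = 0.034, limma), and that call was lost with no filter (adjusted p = 0.0514), with a pseudocount of 0.1 (adjusted p = 0.265), and without replicate 1 or 2 at either temperature.

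**Figure D3:**
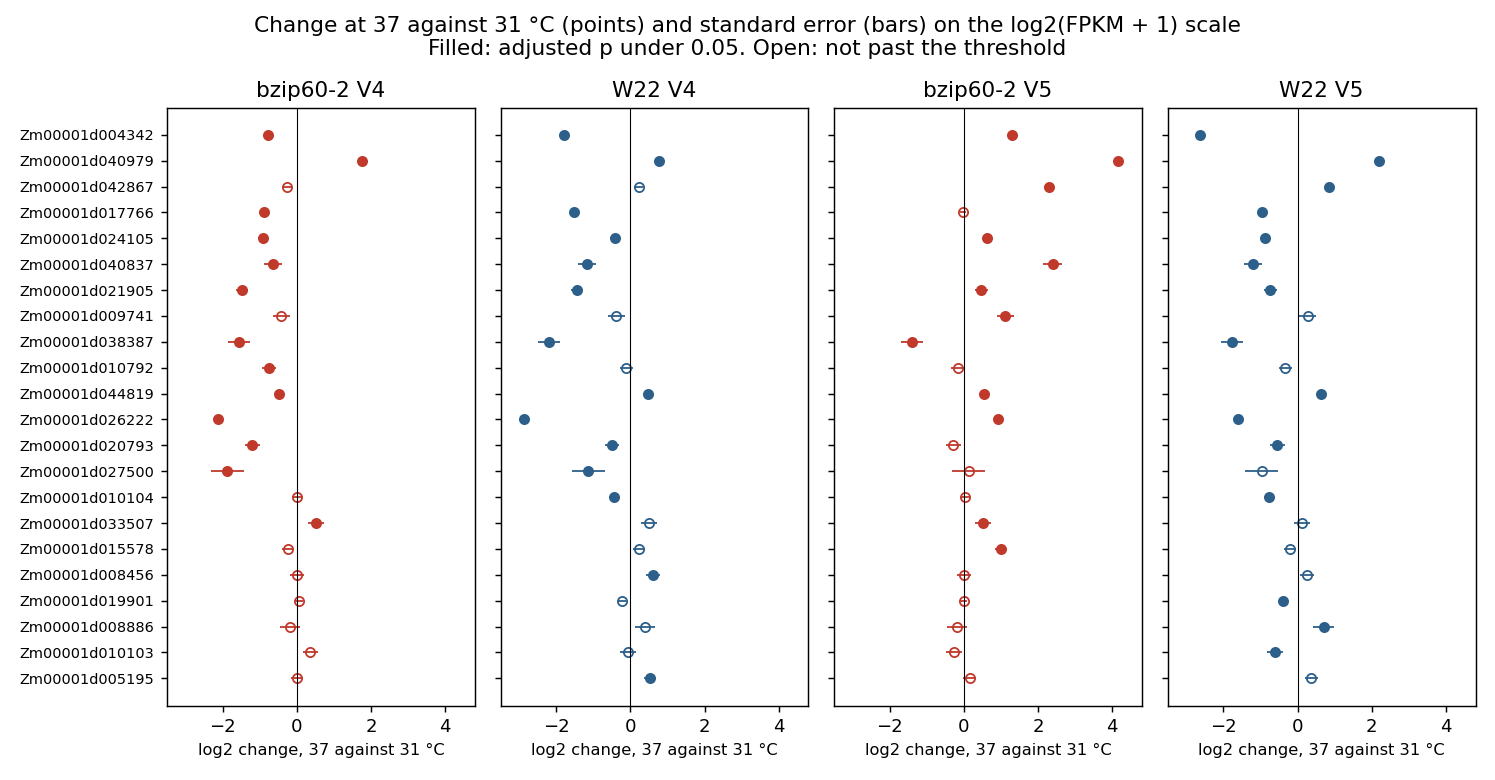
Change at 37 against 31 °C on the log2(FPKM + 1) scale (points, with the standard error as bars) of the 22 genes, in bzip60-2 (red) and W22 (blue) at V4 (left pair of panels) and V5 (right pair). Filled points have an adjusted p under 0.05 in limma; in bzip60-2 at V5 the 11 filled points right of 0 contrast with 1 left of it, and in W22 at V5 there are 4 right and 11 left.

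Zm00001d040979 was higher at 37 °C in all 4 series, the only gene of the set for which this was so (7.11% of all genes). In bzip60-2 at V5 it had 50.4, 49.2 and 54.6 FPKM at 37 °C, against 1.81, 1.98 and 1.95 FPKM at 31 °C (log2 change 4.17, SE 0.063, adjusted p = 2.2e-36, limma). In W22 at V5 it had 131, 139 and 140 FPKM at 37 °C, against 29.8, 30.1 and 27.6 FPKM at 31 °C (log2 change 2.19, SE 0.063, adjusted p = 5.61e-27). The changes at V4 were smaller, 1.77 in bzip60-2 and 0.77 in W22. The path between these temperatures was not steady. At V4 the group means in bzip60-2 were 31.6, 16.0, 49.4 and 110 FPKM at 31, 33, 35 and 37 °C, against 105, 25.1, 253 and 179 FPKM in W22, so that 33 °C was the lowest in both genotypes. At V5 they were 1.91, 3.42, 3.56 and 51.4 FPKM in bzip60-2, against 29.2, 49.8, 99.9 and 137 FPKM in W22.

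Zm00001d038387 was lower at 37 °C in all 4 series, again the only such gene of the set (6.50% of all genes). In bzip60-2 at V4 it had 0.77, 0 and 0.76 FPKM at 37 °C, against 3.84, 4.25 and 2.08 FPKM at 31 °C (log2 change -1.55, adjusted p = 3.13e-05, limma). In W22 at V4 it had 1.36, 1.97 and 3.38 FPKM at 37 °C, against 8.64, 14.6 and 18.7 FPKM at 31 °C (log2 change -2.20, SE 0.30, adjusted p = 8.79e-08). At V5 the log2 changes were -1.39 in bzip60-2 and -1.78 in W22. In each series the 37 °C libraries lay below the 31 °C libraries, and the group means at 33 and 35 °C were closer to that at 31 than to that at 37 °C.

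**Figure D4:**
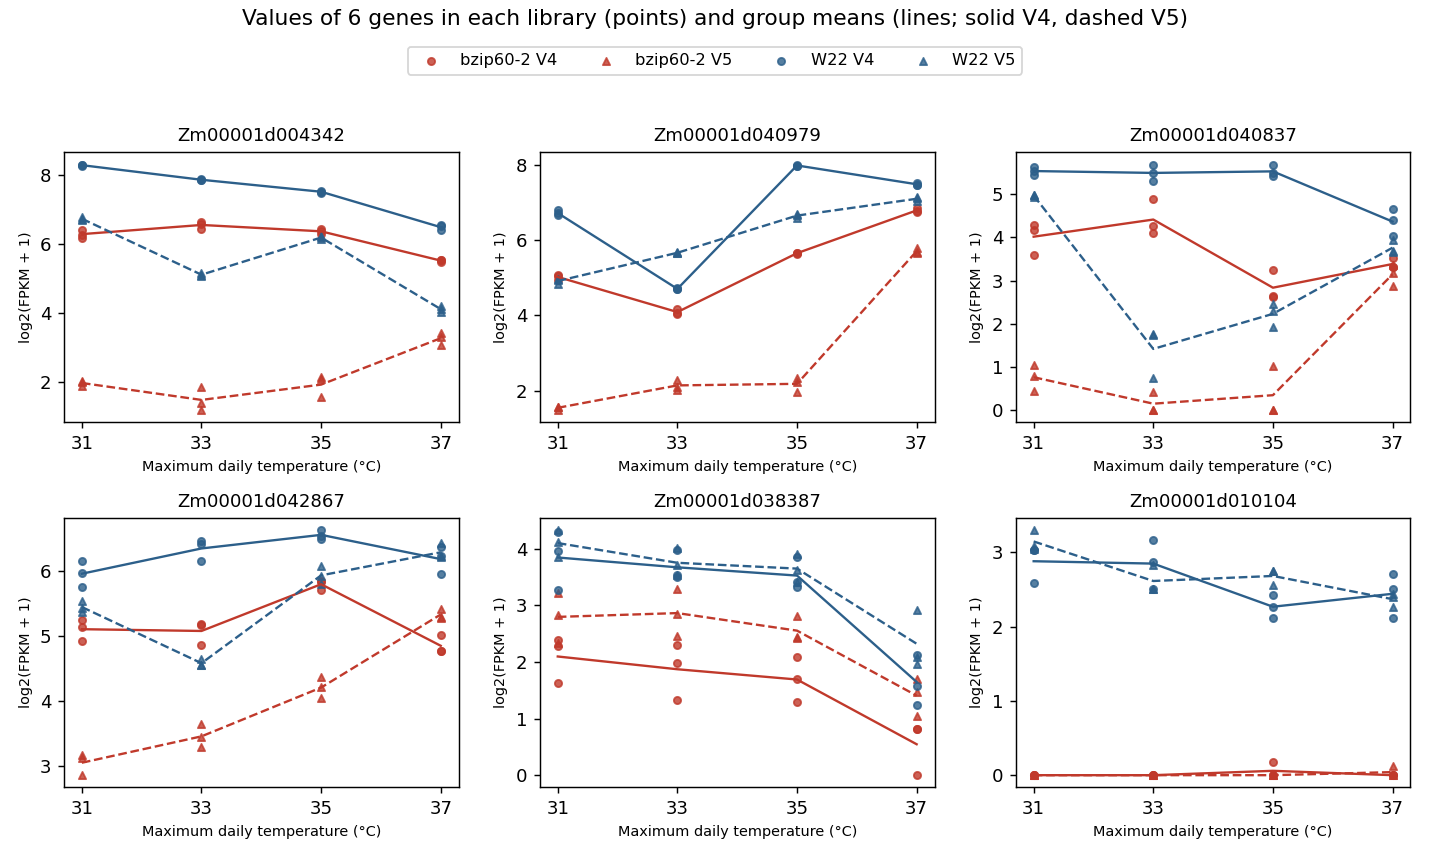
Log2(FPKM + 1) in each library (points) and group means (lines) against the daily maximum temperature for 6 genes, with bzip60-2 in red and W22 in blue, V4 as circles with solid lines and V5 as triangles with dashed lines. Zm00001d040979 is higher and Zm00001d038387 lower at 37 than at 31 °C in all 4 series, while Zm00001d010104 lies at or near 0 in all bzip60-2 libraries.

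A group of 5 genes was higher at 37 °C in bzip60-2 at V5 and lower at 37 °C in W22 at V5: Zm00001d004342, Zm00001d021905, Zm00001d024105, Zm00001d026222 and Zm00001d040837. This combination of calls occurred in 2.03% of all genes, and nothing is read from the comparison, since it sets the genotypes against each other. All of these were lower at 37 °C in both genotypes at V4, although the bzip60-2 V4 call of Zm00001d040837 (-0.63, adjusted p = 0.0277, limma) was not firm. With the library-set term its change was -0.68 (adjusted p = 0.266), with a pseudocount of 0.1 it also missed the threshold (adjusted p = 0.301), and so it did in fits without replicate 1 or 2 at 31 °C, or without replicate 2 or 3 at 37 °C. For Zm00001d004342 the bzip60-2 V5 libraries given above correspond to a log2 change of 1.299 (adjusted p = 2.18e-13, limma), and the W22 V5 libraries to -2.62 (SE 0.11, adjusted p = 2.93e-22). The bzip60-2 level at V5 was below the W22 level at each temperature, which the rule requires of every gene in the set.

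Zm00001d040837 at V5 had 8.05, 9.35 and 6.38 FPKM at 37 °C in bzip60-2, against 1.07, 0.35 and 0.72 FPKM at 31 °C (log2 change 2.39, SE 0.25, adjusted p = 1.09e-10, limma). In W22 at V5 it had 12.0, 11.6 and 14.4 FPKM at 37 °C, against 30.8, 30.8 and 29.6 FPKM at 31 °C (log2 change -1.21, adjusted p = 9.17e-05). The W22 means passed through a low point, with 30.4, 1.80, 3.73 and 12.6 FPKM at 31, 33, 35 and 37 °C. In both genotypes the middle temperatures were the lowest at V5, since the bzip60-2 means were 0.71, 0.11, 0.34 and 7.93 FPKM.

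Zm00001d026222 had the largest fall of the set at V4 in either genotype. In bzip60-2 at V4 it had 0.28, 0.25 and 0.38 FPKM at 37 °C, against 4.02, 5.05 and 4.93 FPKM at 31 °C (log2 change -2.12, SE 0.08, adjusted p = 3.31e-23, limma). In W22 at V4 it had 1.03, 1.07 and 1.07 FPKM at 37 °C, against 13.7, 14.1 and 13.98 FPKM at 31 °C (log2 change -2.86, SE 0.08, adjusted p = 3.72e-27). At V4 the group mean was lower at each higher temperature in both genotypes. At V5 the bzip60-2 libraries had 1.69, 1.64 and 1.39 FPKM at 37 °C, against 0.40, 0.34 and 0.34 FPKM at 31 °C, a log2 change of 0.92.

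The 2 remaining members of the group moved by less in bzip60-2 at V5. Zm00001d024105 changed by 0.63 (adjusted p = 2.92e-05, limma), with 8.42, 8.79 and 7.61 FPKM at 37 °C, against 5.98, 4.01 and 5.14 FPKM at 31 °C. Zm00001d021905 changed by 0.47 (adjusted p = 0.0166), with 4.83, 5.50 and 5.55 FPKM at 37 °C, against 5.19, 2.92 and 2.84 FPKM at 31 °C. The libraries of Zm00001d021905 overlapped, and its call was lost in fits without the 31 °C replicate 2, the 31 °C replicate 3 or the 37 °C replicate 3, and in a fit of only these 6 libraries (adjusted p = 0.0777).

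A further 3 genes, Zm00001d040979, Zm00001d042867 and Zm00001d044819, were higher at 37 °C in both genotypes at V5, as were 11.0% of all genes. Zm00001d042867 had 38.4, 37.9 and 41.95 FPKM at 37 °C in bzip60-2, against 6.28, 8.04 and 7.73 FPKM at 31 °C (log2 change 2.28, adjusted p = 1.11e-19, limma). In W22 at V5 it had 73.4, 74.0 and 85.3 FPKM at 37 °C, against 40.4, 45.4 and 42.5 FPKM at 31 °C (log2 change 0.84, SE 0.11, adjusted p = 8.56e-08). At V4 its change passed the threshold in neither genotype, with -0.25 in bzip60-2 and 0.23 in W22; the bzip60-2 change was called after size-factor scaling (-0.36) and under a stricter filter, and the W22 change with a term for the library sets (0.34).

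Zm00001d044819 was the only gene lower at 37 °C in bzip60-2 and higher in W22 at V4 (1.42% of all genes). It had 1.44, 1.16 and 1.26 FPKM at 37 °C in bzip60-2, against 2.41, 2.16 and 1.92 FPKM at 31 °C (log2 change -0.47, adjusted p = 1.02e-05, limma). The W22 libraries had 10.7, 9.66 and 9.81 FPKM at 37 °C, against 6.68, 7.48 and 6.72 FPKM at 31 °C (log2 change 0.48, adjusted p = 9.89e-06). Within each genotype the 37 and 31 °C libraries did not overlap. At V5 its log2 change was 0.53 in bzip60-2 and 0.63 in W22.

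Among weaker transcripts, Zm00001d033507 was called higher at 37 °C in bzip60-2 at V4, with 2.15, 2.21 and 2.52 FPKM at 37 °C, against 0.81, 1.43 and 1.80 FPKM at 31 °C (log2 change 0.51, SE 0.22, adjusted p = 0.0453, limma). This call lay close to the threshold and was lost with size factors, with a term for the library sets and when replicate 1 or 2 at 31 °C or any replicate at 37 °C was left out. Zm00001d027500 was lower in that series, with 0.56, 0.50 and 0 FPKM at 37 °C, against 4.11, 2.21 and 6.01 FPKM at 31 °C (log2 change -1.87, SE 0.44, adjusted p = 0.000485). With the library-set term its change was -1.56 and passed the threshold no longer (adjusted p = 0.147). Zm00001d005195 was higher in W22 at V4, with 1.70, 1.01 and 1.80 FPKM at 37 °C, against 0.84, 0.42 and 0.95 FPKM at 31 °C (log2 change 0.53, SE 0.16, adjusted p = 0.00832), and lost the call with that term (adjusted p = 0.0532).

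Zm00001d017766 stood out at 33 °C. In bzip60-2 at V5 its group means were 5.50, 61.7, 2.53 and 5.32 FPKM at 31, 33, 35 and 37 °C, against 21.3, 132, 21.1 and 10.5 FPKM in W22 at V5. At V4 they were 8.52, 19.9, 7.32 and 4.16 FPKM in bzip60-2 and 24.9, 36.01, 20.5 and 7.98 FPKM in W22. The 33 °C group was thus the highest in all 4 series, and the moderated F test over temperatures passed in each series, with 1.61e-21 in bzip60-2 at V4 as the largest adjusted p (limma). This gene is named here for a pattern seen in its values, outside the rule for named genes.

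Whether the temperature change differed between stages was tested within each genotype, as a comparison added after the values were seen. In bzip60-2 the change at 37 against 31 °C was higher at V5 than at V4 in 13 genes and lower in 0, where 11.9% of all genes tested were higher and 30.9% lower. At an unadjusted p under 0.05, 1 gene was lower: Zm00001d010103, with -0.63 (adjusted p = 0.0862, limma), which was called without replicate 3 of bzip60-2 V4 at 37 °C or replicate 2 of bzip60-2 V5 at 31 °C. A group of 6 genes was called both higher at V5 and lower at V4 in bzip60-2, with the difference between stages also called, where 2.06% of all genes met these calls. With a term for the library sets the count was 5. In W22 it was higher at V5 in 5 genes and lower in 2, where 9.48% of all genes were higher and 13.6% lower. Of the 2 lower, Zm00001d024105 (adjusted p = 0.0489) lost its call in 10 of 12 fits that each left out a library, and the count of lower genes was 1 without replicate 1 or 3 of W22 V4 at 31 or 37 °C, and without replicate 2 or 3 of W22 V5 at 31 or 37 °C. The widest changes in bzip60-2 were 3.04 for Zm00001d026222, 3.02 for Zm00001d040837, 2.54 for Zm00001d042867 and 2.40 for Zm00001d040979. With a term for the library sets, 10 of the 13 kept their call, and Zm00001d009741, Zm00001d020793 and Zm00001d027500 lost it (adjusted p = 0.0523, 0.42 and 0.186).

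The stage comparison was made over the average of the 4 temperatures. In bzip60-2, 2 genes were higher at V5 than at V4 and 11 lower, where 67.0% of all genes tested were higher and 15.2% lower. In W22, 5 were higher and 11 lower, where 65.7% of all genes were higher and 15.8% lower. The median change of the 22 was -0.37 in bzip60-2 and -0.12 in W22, against 0.30 and 0.29 over all genes. After scaling by size factors the all-gene medians were 0.03 in both genotypes and those of the 22 were -0.54 in bzip60-2 and -0.37 in W22, and the counts of higher genes were 1 in bzip60-2 and 3 in W22. The shares of all genes in the stage comparison are from unscaled values, where the all-gene medians lay above 0. They are not given with size factors, so nothing is read from the contrast of the 22 genes with them. A group of 10 genes was lower at V5 in both genotypes, as were 11.2% of all genes, and none was higher in both (0 of 22, where 58.5% of all genes were). With a term for the library sets the count of lower genes was 6, since Zm00001d015578, Zm00001d027500, Zm00001d033507 and Zm00001d044819 lost their call in W22.

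Zm00001d004342 fell furthest between stages in bzip60-2, by 4.02 on the log2 scale (SE 0.053, adjusted p = 4.23e-39, limma). Its bzip60-2 group means at 31, 33, 35 and 37 °C were 2.89, 1.82, 2.82 and 8.61 FPKM at V5, against 76.6, 92.2, 81.0 and 44.5 FPKM at V4. In W22 they were 104, 33.3, 71.3 and 16.2 FPKM at V5, against 308, 230, 180 and 88.1 FPKM at V4 (log2 change -2.002, SE 0.053, adjusted p = 3.94e-29). V5 lay below V4 at every temperature in both genotypes.

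Zm00001d040837 fell between stages by 2.57 in bzip60-2 (adjusted p = 8.75e-21, limma) and by 2.14 in W22 (adjusted p = 2.25e-18). Its bzip60-2 means were 15.6, 20.95, 6.28 and 9.46 FPKM at V4, and its W22 means there were 45.6, 44.4, 45.5 and 20.0 FPKM. The V5 means given above were lower than these at the same temperature in both genotypes. In the other direction, Zm00001d038387 was higher at V5 in bzip60-2 (log2 change 0.85, SE 0.15, adjusted p = 2.73e-06), with means of 6.16, 6.48, 4.92 and 1.69 FPKM at V5, against 3.39, 2.80, 2.31 and 0.51 FPKM at V4. Zm00001d010103 was higher at V5 in W22 (log2 change 0.57, SE 0.11, adjusted p = 6.47e-06), with means of 3.63, 3.02, 2.01 and 2.08 FPKM at V5, against 1.49, 1.75, 1.15 and 1.44 FPKM at V4. The comparison of stages in W22 crosses the library sets, and with a term for them the change of Zm00001d010103 was 0.09 (adjusted p = 0.821), while that term also left 6 genes lower in W22 instead of 11.

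The profiles over the 8 groups of a genotype were compared among the 16 genes that reach 1 FPKM in a bzip60-2 library, since those of the other 6 vary around 0 in bzip60-2. Over 120 pairs of genes the median Pearson correlation of group means was 0.45 in bzip60-2 (-0.93 to 0.97) and 0.16 in W22 (-0.80 to 0.97). Over all members with varying values the median was 0.09 in bzip60-2 (210 pairs) and 0.02 in W22 (231 pairs). The 16 genes were chosen by their bzip60-2 values, and no median over other genes is given. The medians of the genotypes are therefore a description, and nothing is read from their difference. No p is given, because the groups share stages and temperatures. In bzip60-2 the closest pairs were Zm00001d004342 with Zm00001d044819 (r = 0.97) and Zm00001d040837 with Zm00001d044819 (r = 0.95). In W22 they were Zm00001d004342 with Zm00001d027500 (r = 0.97), Zm00001d021905 with Zm00001d027500 (r = 0.91) and Zm00001d033507 with Zm00001d042867 (r = 0.90). The consecutive identifiers Zm00001d010103 and Zm00001d010104, both near 0 in bzip60-2, had r = 0.60 in W22.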

How the data were processed

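FPKM values were made by the authors and deposited as a table with 1 column per library and values to 2 decimals, per the file headers. The tools named per the submitters' processing notes are RSEM 1.2.12, Bowtie2 2.2.5, HISAT2 2.0.4, HISAT and DESeq2 1.4.5, with no role stated. Not given in the sources used here: genome build, annotation, and how reads shared by near-identical genes were divided. From the deposited FPKM, log2(FPKM + 1) was computed. Genes with 1 FPKM or more in at least 3 libraries (22794 of 33309) entered a model of 16 group means fitted to 48 libraries in limma 3.58.1 (R 4.3.3; moderated by empirical Bayes, with a trend on the mean), with two-sided p-values and Benjamini-Hochberg adjustment over all genes tested. The count test was not run, since counts were not used here. The script was tested on simulated data. Plots used matplotlib 3.10.9 under Python 3.11.15.

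The members and lists were chosen with earlier results of these data known. Lists of unfolded protein response, heat shock, photosynthesis and clock genes could not be applied, because 0 of 30432 nuclear identifiers matched a name. Named genes are those with the 2 largest and 2 smallest average genotype differences, the 2 most abundant in W22, up to 2 rises and 2 falls per contrast that passed without overlap of replicates (37 against 31 °C) or with 1 sign at all 4 temperatures (stages), those nearest the threshold of the rule on either side, and consecutive identifiers; genes named beyond these were chosen after their values were seen. Alternatives were other filters, a pseudocount of 0.1, size factors, a replicate block, a term for the library sets, smaller fits and left-out libraries.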

Additional observations from a re-analysis of the deposited data

Results flagged for a closer look

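The change at 37 against 31 °C in bzip60-2 went in opposite directions at V5 and V4 in 6 genes, higher at V5 and lower at V4. The difference between stages was also tested in limma. These 6 genes were picked by their calls at both stages and by the call of that difference. The adjusted p-values of the difference thus describe the choice and are no separate support. That difference was 2.07 on the log2 scale for Zm00001d004342 (1.299 at V5 and -0.77 at V4, adjusted p = 2.61e-14), 1.95 for Zm00001d021905 (0.47 and -1.48, adjusted p = 1.19e-08) and 1.55 for Zm00001d024105 (0.63 and -0.92, adjusted p = 1.35e-09). For Zm00001d026222 it was 3.04 (0.92 at V5 and -2.12 at V4, adjusted p = 5.51e-23), for Zm00001d040837 3.02 (2.39 and -0.63, adjusted p = 3.82e-09) and for Zm00001d044819 0.99 (0.53 and -0.47, adjusted p = 7.78e-09). With a term for the library sets that difference stayed past the threshold in all 6, with values of 0.95 to 3.07. Over all genes tested, 2.06% met the same calls. With the term for the library sets 5 genes met them, since the V4 call of Zm00001d040837 was lost (adjusted p = 0.266). It was also lost with a pseudocount of 0.1 and in 4 of 6 fits that each left out a library, and the V5 call of Zm00001d021905 was lost in 3 of 6 such fits and in a fit of only those libraries. The bzip60-2 V4 libraries at 31 °C lie in the other library set from those at 37 °C. No bzip60-2 group holds both sets, so the term for the sets carries the deviation of replicate 3 of W22 V4 at 37 °C.

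The change at 37 against 31 °C also had opposite signs in bzip60-2 and W22 at the same stage in 5 cases where the replicates compared did not overlap in either genotype. The difference, bzip60-2 minus W22, was -0.94 for Zm00001d044819 at V4. At V5 it was 3.92 for Zm00001d004342, 1.501 for Zm00001d024105, 2.53 for Zm00001d026222 and 3.60 for Zm00001d040837. These differences were not tested, because the genotype values chose the genes.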

How the results depend on the processing

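The size of the set depends on how it is drawn: 44 genes with a pseudocount of 0.1, 47 with size factors (22 of the main set in each) and 6 with a threshold of -1, all 6 from the main set. Without replicate 1, 2 or 3 throughout it held 22 to 23 genes, sharing 22, 20 and 18.

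At 37 against 31 °C the count higher in bzip60-2 V4 was 1 with no filter, with size factors and with the library-set term, and the count lower there was 7 with that term. The count higher in W22 V4 was 2 in a fit of only those libraries, and the count lower was 6 with a pseudocount of 0.1. Between stages, the count higher in bzip60-2 was 1 with size factors, the count higher in W22 was 3 with size factors and 3 with the set term, and the count lower in W22 was 6 with that term. For the added difference of V5 minus V4 in the temperature change, the count lower in bzip60-2 was 1 with a pseudocount of 0.1, and the count lower in W22 was 1 with no filter, a pseudocount of 0.1, size factors or the set term. The set term is estimated from W22 V4 at 37 °C alone, the only group with both sets. There it sets replicate 3 against the other replicates, so all results with the term carry the deviation of that library. At 37 against 31 °C in W22 V4, the change with the term equalled that without this library for Zm00001d005195 (0.437) and Zm00001d020793 (-0.349). The causes were not tested.

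Leaving out single libraries gave 1 to 2 higher and 10 to 12 lower in bzip60-2 V4, 3 to 7 and 8 to 10 in W22 V4, 9 to 10 and 1 in bzip60-2 V5, and 3 to 5 and 10 to 12 in W22 V5. Over 4 temperatures the counts were 14 to 15, 15 to 18, 12 to 14 and 18 to 20 in the same order. Between stages they were 2 higher and 11 lower in bzip60-2, and 4 to 6 and 11 in W22. For V5 minus V4 they were 13 to 14 higher and 0 to 1 lower in bzip60-2, and 4 to 5 and 1 to 2 in W22.

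With size factors the stage change turned sign for Zm00001d017766 in bzip60-2 (-0.28), and in W22 for Zm00001d009741 (-0.081), Zm00001d010104 (-0.20), Zm00001d010792 (-0.23), Zm00001d019901 (-0.18) and Zm00001d026222 (-0.12). With the set term it turned for Zm00001d020793 in W22 (0.13). Replicate numbers do not pair the samples: 36 correlations of deviations between same-numbered libraries lay between -0.0452 and 0.0435. With the replicate block, 175 gene results were the same, and 1 was not: Zm00001d010792 gained a call in the bzip60-2 V5 minus V4 change (0.58, adjusted p = 0.0425). The block left 11 genes higher in bzip60-2 V5 and 11 lower in W22 V5.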
